A study of Mus musculus with 3 samples.

Results

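Axonemal dynein heavy chains are the motor subunits that bend motile cilia and sperm tails, and Hydin is a very large protein of the central pair at the core of the same structure. The 10 genes described here are Dnah5, Dnah8, Dnah9, Dnah11, Dnah1, Dnah2, Dnah3, Dnah6 and Dnah12, which encode heavy chains, and Hydin, out of 39179 genes in the table. They were named one by one as motile cilia genes, with the level of Dnah12 in one library and that of Hydin in another already known, so the values of these genes are given as a description. All of them were found in the table by symbol.

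In a motile cilium, outer dynein arms and inner dynein arms sit in rows on the doublet microtubules and slide one doublet along the next, while the central pair and the radial spokes regulate that sliding. Dynein heavy chains hydrolyse ATP and walk on microtubules, and they need intermediate and light chains, docking proteins and cytoplasmic assembly factors to reach the axoneme. These genes are best known from multiciliated epithelia, the embryonic node and sperm, and embryonic stem cells (ESCs) are not a cell type in which motile cilia are usually described.

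The RNA came from E14tg2a mouse ESCs, a widely used male 129 line, grown in serum with LIF on gelatin, with 1 strand-specific RNA-seq library per condition. The Zmym2 knockout (KO) cells carry Cas9-induced frameshift mutations in both alleles of Zmym2, which encodes a zinc finger protein also called ZFP198 that binds NANOG. The overexpressing (OE) cells carry a stably integrated PiggyBac transgene for Zmym2, and the wild type (WT) cells are unmodified E14tg2a, with no library from cells with an empty vector. The KO line was a single clone grown from a sorted cell, so differences of that clone and loss of Zmym2 cannot be told apart. The OE cells were transfected and drug selected, and the promoter of their transgene was not found in the sources used here.

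The libraries held 46995766 gene reads in KO, 41840774 in OE and 50120551 in WT, and 1 read was worth 1.01, 1.10 and 0.945 normalised counts in KO, OE and WT cells. Zmym2 had 4370 normalised counts in KO, 57139 in OE and 7956 in WT, a ratio of 0.549 for KO and 7.18 for OE over WT. The line descriptions of the KO and OE libraries are exchanged relative to their titles, and the titles were followed, since the Zmym2 levels run with them. All 10 ESC markers examined were expressed in every library, with Pou5f1 between 31522 and 36973 normalised counts. With 1 library per condition there is no replicate check and no test, so every interval below is an exact 95% interval of the read counts (Poisson for a level, Clopper-Pearson for a ratio) and covers counting error only. A ratio is always the first library named over the second, and a gene was called higher or lower when its level, after adding 1 normalised count to each library, differed at least 2-fold and its mean over the 3 libraries reached 10 normalised counts.

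Hydin and Dnah12 were the members that differed most between the libraries, and both were highest in KO and lowest in OE. Hydin had 816 normalised counts in KO and 25.3 in OE, against 194 in WT. Dnah12 had 1044 normalised counts in KO and 15.4 in OE, against 35.0 in WT. Dnah6 shared the low level in OE but not the high level in KO, with 142 in KO and 55.0 in OE, against 118 in WT. Because the libraries are bulk RNA, more expressing cells and more RNA per cell cannot be told apart in these values.

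The sequences before these 3 genes are shown because the genes had the lowest ratios of OE over WT among the members. RFX factors, which act on many cilia genes, bind the X-box, an inverted repeat of cores that resemble GTTGC. Each window runs from 250 bases before to 50 bases after the RefSeq gene start (GRCm38.p6), 5′ to 3′ on the strand of the gene. Capitals mark each core on either strand and, in Hydin and Dnah6, the bases that lie between the cores of an inverted pair.
Hydin, chr8:110266727-110267026, plus strand: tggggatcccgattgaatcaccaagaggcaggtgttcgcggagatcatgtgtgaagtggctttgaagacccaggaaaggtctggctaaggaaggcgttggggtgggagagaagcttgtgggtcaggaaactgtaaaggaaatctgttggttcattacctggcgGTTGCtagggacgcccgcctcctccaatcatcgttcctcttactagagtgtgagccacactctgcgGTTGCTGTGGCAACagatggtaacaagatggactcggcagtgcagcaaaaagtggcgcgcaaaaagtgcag
Dnah6, chr6:73221582-73221881, minus strand: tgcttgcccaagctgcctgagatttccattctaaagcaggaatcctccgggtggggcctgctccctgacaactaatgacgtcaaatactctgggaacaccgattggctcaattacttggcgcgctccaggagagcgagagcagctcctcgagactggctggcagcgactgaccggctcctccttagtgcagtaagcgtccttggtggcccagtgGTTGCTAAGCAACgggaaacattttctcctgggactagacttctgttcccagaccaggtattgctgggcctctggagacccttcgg
Dnah12, chr14:26691304-26691603, plus strand: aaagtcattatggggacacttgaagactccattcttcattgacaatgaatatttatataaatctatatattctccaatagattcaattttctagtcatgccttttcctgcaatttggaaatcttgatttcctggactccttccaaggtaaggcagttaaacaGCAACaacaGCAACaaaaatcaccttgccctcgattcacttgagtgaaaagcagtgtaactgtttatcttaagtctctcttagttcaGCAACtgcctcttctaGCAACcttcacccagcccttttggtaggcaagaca

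In the Hydin window the pair GTTGCTGTGGCAAC began 21 bases before the start, and in the Dnah6 window GTTGCTAAGCAAC began 36 bases before it. The spelling GTTGCNNNGCAAC was in 74 of 32544 promoter windows of 300 bases (0.227%), among them that of Dnah6, and GTTGCNNNNGCAAC was in 57 (0.175%), among them that of Hydin. Either spelling was thus in 0.403% of windows and in 2 of the 9 members with a window. These spellings read the same on both strands, and they were chosen after the sequences had been seen. The pair with 3 bases between its cores was also in the windows of Dnah7a, Dnah7b and Dnah7c, heavy chain genes outside the members. Their ratios of OE over WT were 0.489 (0.279 to 0.829) for Dnah7a and 0.854 (0.355 to 1.99) for Dnah7b. Reads of these near-identical copies could be split by the counting, and Dnah7c had no reads in any library. The single core, GTTGC or GCAAC on the other strand, was in 35.1% of all windows and in those of 7 members, including 4 matches in Dnah12, and every pair contains 2 of these cores. The forkhead core GTAAACA, or TGTTTAC on the other strand, was in 3.66% of windows and in none of the members' windows. It was in the window of Dnah17, a heavy chain gene outside the members. The Dnah12 window lies around the RefSeq start, which is 1720 bases from the start in the GENCODE annotation. A match of letters is not evidence of a bound site.

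Among the outer arm heavy chains, Dnah8 was the most abundant and the only one called different from WT. Dnah8 (chromosome 17, 30624354 to 30877365, plus strand), a heavy chain of sperm tail outer arms, had 1234 normalised counts in KO and 2051 in OE, against 957 in WT. It was therefore lowest in WT, and the intervals of its levels did not overlap between libraries. The ratio was 1.29 (1.19 to 1.403) for KO over WT, 2.14 (1.98 to 2.32) for OE over WT and 1.66 (1.55 to 1.79) for OE over KO. Of the members, Dnah8 alone was called higher in OE.

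Dnah5 (chromosome 15, 28203752 to 28472052, plus strand), an outer arm heavy chain whose loss in mice causes primary ciliary dyskinesia, had 23.2 normalised counts in KO and 13.2 in OE, against 15.1 in WT. These levels rested on 23, 12 and 16 reads in KO, OE and WT, and the intervals of both ratios to WT held 1 (0.777 to 3.11 for KO and 0.377 to 1.97 for OE). Dnah9 (chromosome 11, 65831282 to 66168551, minus strand), the heavy chain of the distal outer arms in human airway cilia, had 5.05 in KO and 6.60 in OE, against 5.67 in WT. At 5 or 6 reads per library, no difference in Dnah9 was detectable at this depth. Dnah11 (chromosome 12, 117877982 to 118199043, minus strand), the gene mutated in the iv mouse with randomised left-right asymmetry, had 84.9 in KO and 57.2 in OE, against 69.9 in WT. Neither ratio of Dnah11 to WT left counting error, at 1.21 (0.877 to 1.68) for KO and 0.818 (0.563 to 1.18) for OE, while OE over KO was 0.674 (0.468 to 0.964).

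**Figure D1:**
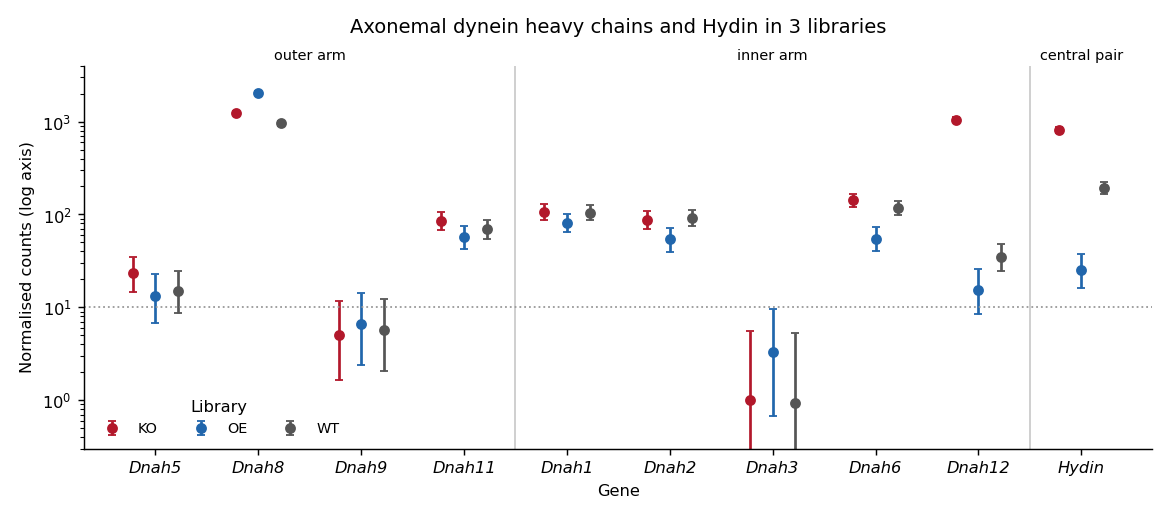
Normalised counts (log axis) of the 9 heavy chains and Hydin, grouped by role, in the KO, OE and WT libraries; bars are exact 95% Poisson intervals of the reads, cut at the lower edge for Dnah3, and the dotted line marks 10 normalised counts. Dnah12 and Hydin stood at 1044 and 816 in KO, far above their levels in OE and WT, whereas Dnah8 was highest in OE at 2051.

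Among the inner arm heavy chains, Dnah12 differed by far the most. Dnah12 (ENSMUSG00000021879, chromosome 14, 26693274 to 26891703, plus strand) encodes a short inner arm heavy chain and overlaps no other annotated gene. Its 1033 reads in KO, against 37 in WT, gave a level of 1044 (981 to 1109) in KO and 35.0 (24.6 to 48.2) in WT, a ratio of 29.8 (21.5 to 42.6). This was the 7th highest ratio of KO over WT among the 15688 genes that reached a mean of 10 normalised counts. With 14 reads, the level in OE was 15.4 (8.42 to 25.9), and the ratio of OE over WT was 0.441 (0.220 to 0.835), or 2.27-fold lower. The intervals of the levels in OE and WT overlapped slightly. Between the modified lines, Dnah12 was 67.7-fold lower in OE than in KO.

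Dnah6 (chromosome 6, 73017606 to 73221651, minus strand), another inner arm heavy chain, was called lower in OE, with 50 reads in OE against 125 in WT. Its ratio was 0.466 (0.329 to 0.652) for OE over WT and 1.21 (0.941 to 1.55) for KO over WT. Dnah2 (chromosome 11, 69420809 to 69549110, minus strand), a heavy chain of the double-headed inner arm, had 87.9 normalised counts in KO and 53.9 in OE, against 91.7 in WT. The ratio of OE over WT for Dnah2 was 0.588 (0.409 to 0.838), below 1 beyond counting error but short of 2-fold, and that of KO over WT was 0.959 (0.710 to 1.29).

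Dnah1 (chromosome 14, 31260375 to 31323896, minus strand), an inner arm heavy chain needed for sperm motility in mice, was the member whose ratio of KO over WT was closest to 1. It had 107 normalised counts in KO and 81.4 in OE, against 105 in WT, with ratios to WT of 1.02 (0.775 to 1.34) for KO and 0.776 (0.571 to 1.05) for OE. Although Dnah1 lies on the same chromosome as Dnah12, their ratios of KO over WT were 1.02 and 29.8. Dnah3 (chromosome 7, 119922671 to 120095280, minus strand), a further inner arm heavy chain, had 1 read in KO and 3 in OE, against 1 in WT. Its ratio of OE over WT, 3.49, had an interval of 0.281 to 183, so nothing can be read from it at this depth.

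**Figure D2:**
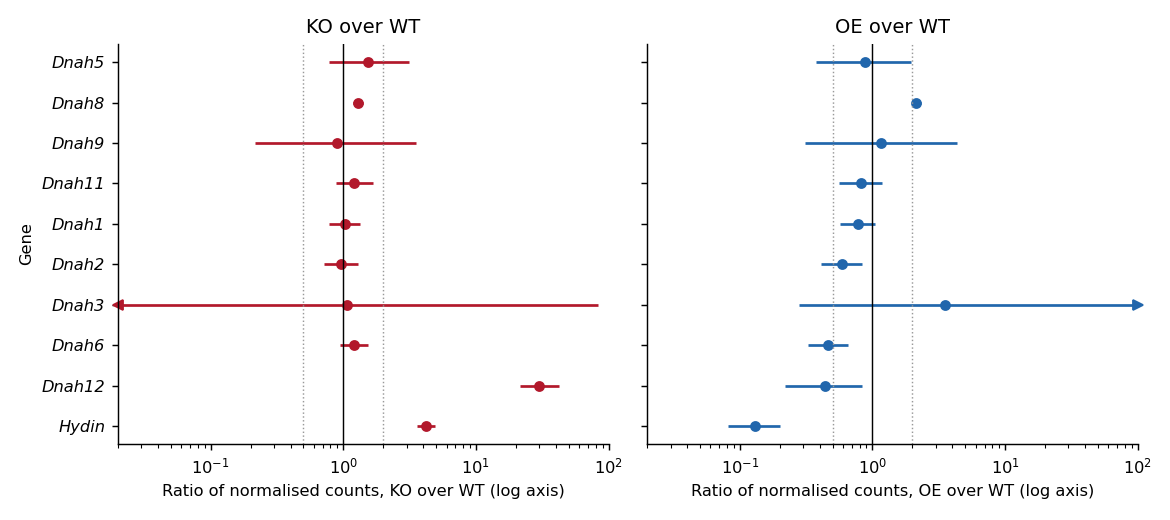
Ratio of normalised counts (log axis) for the 10 genes, KO over WT on the left and OE over WT on the right; bars are exact 95% Clopper-Pearson intervals of the reads, arrows run past the axis, and dotted lines mark a 2-fold difference. Dnah12 and Hydin lay above 2-fold in KO, at 29.8 and 4.21, and Hydin lay lowest in OE, at 0.131.

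Hydin (ENSMUSG00000059854, chromosome 8, 110266977 to 110610253, plus strand) encodes a protein of a central pair projection, and mice that lack it develop hydrocephalus. Its 808 reads in KO, 23 in OE and 205 in WT gave levels of 816 (761 to 875) in KO, 25.3 (16.05 to 38.0) in OE and 194 (168 to 222) in WT, with no overlap between any of them. The ratio of KO over WT was 4.21 (3.61 to 4.94), the 224th highest of the 15688 genes. The ratio of OE over WT was 0.131 (0.0810 to 0.202), or 7.65-fold lower, the 24th lowest of these genes. Hydin was 32.2-fold lower in OE than in KO. The annotation places 5 small genes inside Hydin, of which 2 are on its strand, and those of the 5 that are in the table had no reads in any library.

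Of the 10 members, 8 reached a mean of 10 normalised counts, all but Dnah3 and Dnah9. In KO, 2 of these 8 were called higher than in WT, Dnah12 and Hydin, and 0 were called lower, whereas of all 15688 genes at that level 4.77% were called higher and 4.09% lower. In OE, 1 of 8 was called higher, Dnah8, and 3 were called lower, Hydin, Dnah12 and Dnah6, whereas of all genes 12.0% were called higher and 4.38% lower. Between OE and KO, 0 were called higher in OE and 3 lower, Dnah12, Hydin and Dnah6, against 14.8% and 8.04% of all genes. Because the values of Dnah12 in KO and of Hydin in OE were known when the members were named, and all 3 contrasts share these libraries, nothing is read from these counts. The median log2 ratio of the 8 members was 0.32 for KO over WT, beside -0.02 over all genes, and -0.56 for OE over WT, beside a median within 0.01 of 0 over all genes.

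Counted by interval alone, 3 of the 10 members were above 1 for KO over WT, Dnah8, Dnah12 and Hydin, and the intervals of the other 7 held 1. For OE over WT, Dnah8 was above 1, Dnah2, Dnah6, Dnah12 and Hydin were below 1, and the intervals of 5 held 1. Of all 15688 genes, the interval lay above 1 for 24.6% and below 1 for 29.5% in KO, and above 1 for 32.6% and below 1 for 32.8% in OE, so leaving counting error was common.

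**Figure D3:**
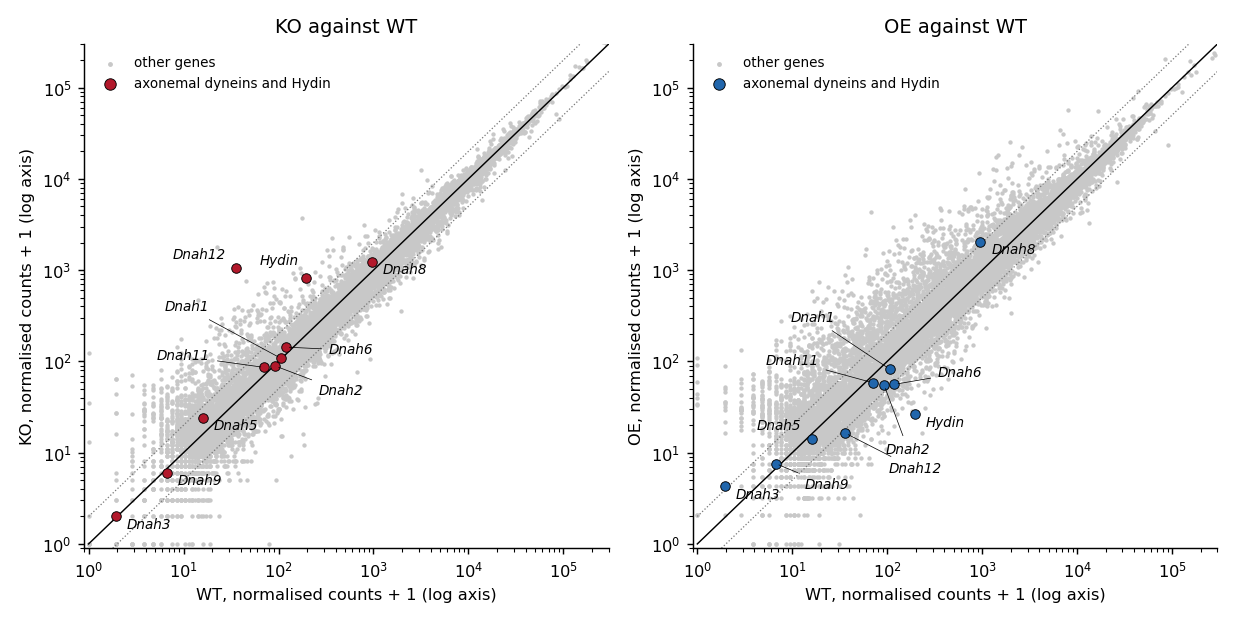
Each gene's normalised counts plus 1 in KO (left) and OE (right) against WT, on log axes; coloured points are the 10 members, grey points the other genes that reached a mean of 10, the line marks equal levels and the dotted lines 2-fold. In KO, Dnah12 at 1044 and Hydin at 816 lay above the upper dotted line, and in OE Hydin, at 25.3 against 194 in WT, lay furthest of the 10 members below the lower one.

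Per kilobase of exon, which allows levels to be compared between genes, the order of the members differed between the libraries. In KO, Dnah12 came first at 86.9 normalised counts per kilobase, followed by Dnah8 at 46.0 and Hydin at 45.3, whose intervals overlapped, and then by Dnah6 at 10.8, Dnah1 at 8.21, Dnah2 at 5.87 and Dnah11 at 5.87, each overlapping the next. In OE, Dnah8 came first at 76.5, clear of Dnah1 at 6.24, Dnah6 at 4.15, Dnah11 at 3.96 and Dnah2 at 3.60, which overlapped in sequence. Hydin and Dnah12 followed in OE at 1.403 and 1.28 per kilobase, overlapping each other and Dnah5 at 0.845.

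In WT, Dnah8 was again first, at 35.7 normalised counts per kilobase and clear of the rest. Hydin followed at 10.7, then Dnah6 at 8.92, Dnah1 at 8.04, Dnah2 at 6.12, Dnah11 at 4.84 and Dnah12 at 2.91, each overlapping the next. Dnah5, Dnah9 and Dnah3 were the last 3 in every library, at 1.49, 0.317 and 0.0706 per kilobase in KO, 0.845, 0.414 and 0.231 in OE, and 0.967, 0.355 and 0.0661 in WT. Summed over the 10 genes, the level was 3546 normalised counts in KO and 2363 in OE, against 1592 in WT. Dnah12 made up 29.4% of that sum in KO and 0.652% in OE, against 2.196% in WT, and Hydin 23.0% in KO and 1.07% in OE, against 12.2% in WT. Dnah8 made up 34.8% in KO and 86.8% in OE, against 60.1% in WT, so the larger sum in OE was largely one gene.

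The nearest gene on each side of Dnah12 and of Hydin whose mean reached 50 normalised counts was within 2-fold of WT in both lines. Pde12, an exonuclease gene 23391 bases from Dnah12, had ratios to WT of 1.16 in KO and 0.852 in OE, and Appl1, an endosomal adaptor gene 27285 bases away on the other side, had 1.19 in KO and 1.04 in OE. Beside Hydin, Cmtr2, an mRNA cap methyltransferase gene, had 0.894 in KO and 0.827 in OE, and Vac14, a gene of a lipid kinase complex, had 0.928 in KO and 0.767 in OE. A less abundant gene, Asb14, lies between Dnah12 and Appl1 and was not within 2-fold of WT.

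Within 1 Mb of Dnah12, 18 genes reached a mean of 10 normalised counts, with a median ratio, after adding 1 normalised count, of 1.14 for KO and 1.01 for OE over WT. In KO, 3 of them were called higher, Asb14, Hesx1 and Gm9780, and in OE 1 was called higher, Gm9780, and 2 were called lower, Asb14 and Hesx1. For Gm9780 the interval of KO over WT, 0.980 to 8.41, held 1. Asb14, an ankyrin repeat gene on the same strand, begins 2854 bases after the end of Dnah12. It had 30.3 normalised counts in KO and 0 in OE, against 4.72 in WT, on 30, 0 and 5 reads in KO, OE and WT. Its ratio was 6.41 (2.46 to 21.2) for KO over WT, whereas the interval for OE over WT, 0 to 1.27, held 1. The mean of Asb14 reached 10 only through the KO library. Hesx1, a homeobox gene of the forebrain and pituitary that is also expressed in ESCs, had 127 in KO and 3.30 in OE, against 36.9 in WT. Over the 522 genes of chromosome 14 the median ratio of KO over WT was 0.762, and that of OE over WT was 1.07. Dnah12 was therefore high in KO on a chromosome whose median gene was low there. The low median did not hold in the window around Dnah12. Nor did it hold within 1 Mb of Dnah1, on the same chromosome, where 35 genes had a median ratio of KO over WT of 0.989. The part of the shift of this chromosome in any ratio was not tested.

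Within 1 Mb of Hydin, 30 genes reached that mean, with a median ratio of 0.840 for KO and 0.880 for OE, close to the medians of 0.852 and 0.891 for KO and OE over the 810 genes of chromosome 8. In KO, 1 of them was called higher, Calb2, and 2 lower, Atxn1l and Mlkl, whereas in OE 2 were called higher, Marveld3 and Mlkl, and 1 lower, D030068K23Rik. None of these 5 genes was called high in KO and low in OE as Hydin was.

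**Figure D4:**
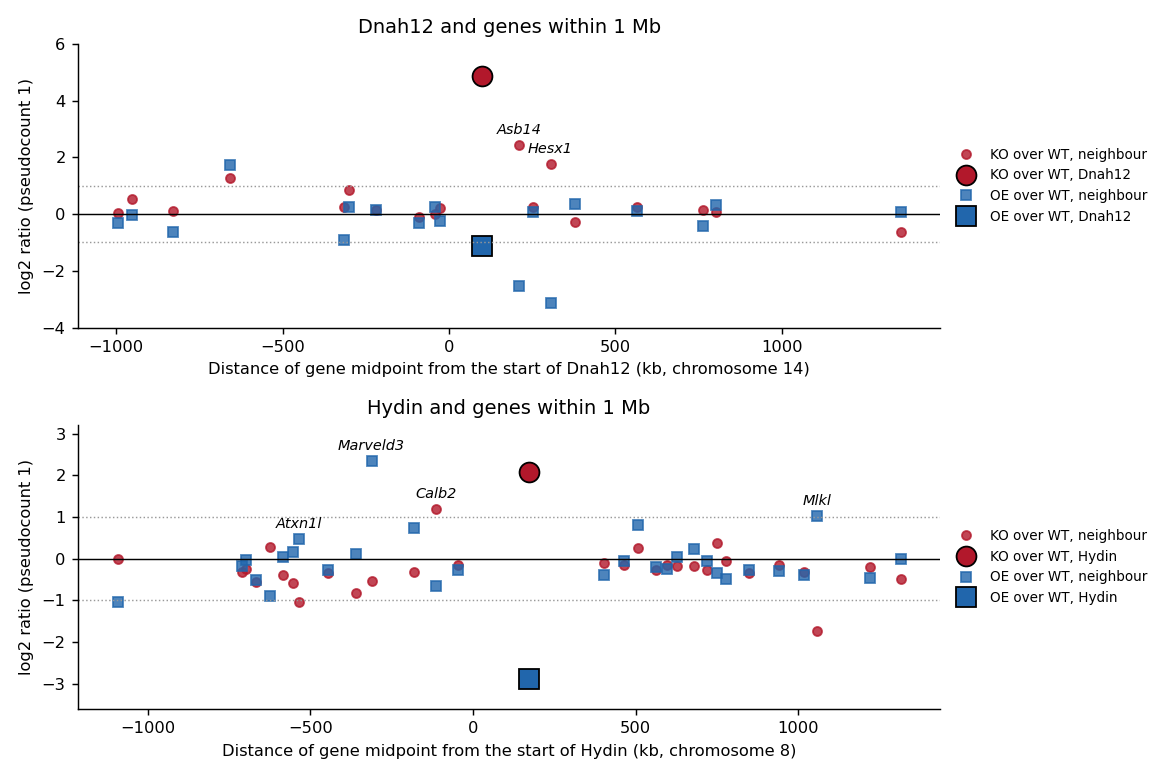
log2 ratios to WT (pseudocount 1) of the genes within 1 Mb of Dnah12 (top) and Hydin (bottom), by the distance of each gene's midpoint from the start of the member (kb); circles are KO over WT, squares OE over WT, large symbols are the members and dotted lines mark 2-fold. Asb14 and Hesx1, after Dnah12, were also called high in KO and low in OE, Asb14 with 0 reads in OE and 5 in WT. No neighbour of Hydin was called in both of these directions.

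Of 12895 other genes whose mean reached 50 normalised counts, those with symbols starting with Gm or ending in Rik were set aside. Among the rest, the pair of log2 ratios lay nearest to that of Dnah12 for Usp9y (distance 0.91), Kdm5d (0.92) and Usp26 (1.28). Usp9y had 475 normalised counts in KO and 11.01 in OE, against 13.2 in WT, Kdm5d had 142 in KO and 4.40 in OE, against 7.56 in WT, and Usp26 had 3687 in KO and 34.1 in OE, against 175 in WT. The interval of the ratio of OE over WT held 1 for Usp9y (0.331 to 2.01) and for Kdm5d (0.128 to 2.17). Usp9y and Kdm5d are Y-linked, and Usp26 is an X-linked gene known from testis. The 2 Y-linked genes had 470 and 141 reads in KO, against 14 and 8 in WT and 10 and 4 in OE. Whether the lines differed in their Y chromosome was not tested. Nearest to Hydin were Tktl2 (0.064), a transketolase-like gene also on chromosome 8, Hesx1 (0.40) and Liph (0.46), a phospholipase gene. Tktl2 had 177 normalised counts in KO and 4.40 in OE, against 40.6 in WT, and Liph had 6755 in KO and 341 in OE, against 2002 in WT. The means of Usp9y, Kdm5d, Tktl2 and Hesx1 reached 50 only through KO, so the minimum itself favoured genes high in KO. Likeness here means closeness over 3 libraries only.

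Of the 6 other axonemal heavy chain genes, 5 reached a mean of 10 normalised counts, and calls among them ran in both directions. The shares of all genes called were 4.77% higher and 4.09% lower in KO, and 12.0% and 4.38% in OE. Nothing is read from counts over so few genes. Dnah10, the partner of Dnah2 in the double-headed inner arm, had 95.97 normalised counts in KO and 40.7 in OE, against 24.6 in WT, and its ratio of KO over WT was 3.91 (2.51 to 6.28). Dnah17, an outer arm heavy chain of sperm, had 51.5 in KO and 14.3 in OE, against 38.7 in WT, a ratio of OE over WT of 0.369 (0.182 to 0.703). Dnah14 had 4.04 in KO and 46.2 in OE, against 10.4 in WT, the opposite order to Dnah12 and Hydin. Its ratio of OE over WT was 4.45 (2.25 to 9.58). That of KO over WT, 0.389 on 4 reads against 11, had an interval of 0.0903 to 1.31, which held 1.

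Dnah7a and Dnah7b, near-identical copies of an inner arm gene whose reads the counting could split, had 29.3 and 28.3 normalised counts in KO and 23.1 and 12.1 in OE, against 47.2 and 14.2 in WT, and are uncertain for that reason. The third copy, Dnah7c, had no reads in any library. Of the 5 that reached a mean of 10, Dnah10 was called higher and Dnah14 lower in KO, and in OE Dnah14 was called higher and Dnah17 and Dnah7a lower.

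Heavy chains need partner proteins to form an arm. Of all genes, 4.77% were called higher and 4.09% lower in KO, and 12.0% and 4.38% in OE. Beside these shares, nothing is read from the small counts of partner genes called. Of 9 intermediate and light chains listed, 5 were measured, meaning that they reached a mean of 10 normalised counts. None of the 5 was called in KO, and in OE only Dnaic2, an outer arm intermediate chain with 21.2 normalised counts in KO and 16.5 in OE against 37.8 in WT, was called lower. No docking gene (4 measured of 5 listed) and no assembly factor (9 of 12) was called in either line. The median log2 ratio to WT was -0.27 for KO and -0.11 for OE over the intermediate and light chains, -0.29 for KO and -0.26 for OE over the docking genes, and 0.23 for KO and -0.26 for OE over the assembly factors. Within these lists Ttc25, a docking gene, was above WT in KO beyond counting error, at 1.57 (1.197 to 2.08), and Ccdc151, another, was below it, at 0.649 (0.487 to 0.861). Neither cytoplasmic dynein heavy chain was called.

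Among the other structures of the axoneme, calls ran in both directions, beside 4.77% of all genes called higher and 4.09% called lower in KO, and 12.0% and 4.38% in OE. Of 9 measured central pair genes of 13 listed, 3 were called higher in KO, 9330101J02Rik, Spag6 and Ttc18, and 1 lower, Spag16, with 0 called in OE. Spag6, a central pair protein of sperm and cilia, had 79.8 normalised counts in KO and 40.7 in OE, against 36.9 in WT, and Spag16, its binding partner, had 46.5 in KO and 119 in OE, against 117 in WT. Of 9 measured radial spoke genes of 13 listed, Wdr66 was called higher and Rsph3b lower in KO, and Rsph3b was called higher in OE.

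Of 9 measured genes of 10 listed for the nexin-dynein regulatory complex and the rulers that space the arms, Iqca was called higher and Ccdc135 lower in KO, and Iqca and Iqcg were called lower in OE. Iqca had 43.4 normalised counts in KO and 0 in OE, against 2.83 in WT, which is 3 reads. Its mean reached 10 only through KO, and the interval of its ratio of OE over WT, 0 to 2.82, held 1. Iqcg had 463 in KO and 274 in OE, against 604 in WT. Of 21 genes of intraflagellar transport and the primary cilium, all measured, Ift88 and Ift43 were called lower in KO and 0 were called in OE. Ift88, on chromosome 14, had 298 in KO and 744 in OE, against 699 in WT, and Ift43 had 110 in KO and 393 in OE, against 240 in WT.

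The regulators of motile cilia differed among themselves in their order across the libraries. Foxj1, the forkhead factor that drives motile cilia genes, had 38.4 normalised counts in KO and 263 in OE, against 111 in WT, with ratios of 0.344 (0.232 to 0.5001) for KO and 2.36 (1.88 to 2.97) for OE. Its order across the libraries was the reverse of that of Hydin and Dnah12. Ccno, a cyclin-like gene of multiciliated cells, had 1124 in KO and 393 in OE, against 470 in WT, with ratios of 2.39 (2.15 to 2.67) for KO and 0.837 (0.728 to 0.960) for OE. Ccno, Rfx2 and Myb, a transcription factor of early multiciliated cells, were highest in KO and lowest in OE, as Hydin and Dnah12 were. Myb had 751 in KO and 388 in OE, against 664 in WT. Rfx3, Rfx4 and Trp73, also on the list of regulators, were lowest in KO and highest in OE, as Foxj1 was. The interval of the ratio of OE over WT held 1 for Rfx3 (0.980 to 1.24) and Rfx4 (0.876 to 1.41), so their OE and WT levels were not told apart. Trp73 had 214 in KO and 299 in OE, against 231 in WT, and the interval of its ratio of KO over WT, 0.769 to 1.12, held 1.

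Of 11 measured regulators of 14 listed, Ccno was called higher and Foxj1 and Rfx4 lower in KO, and Foxj1 and Gmnc were called higher in OE. Rfx4 had 60.6 normalised counts in KO and 156 in OE, against 141 in WT, and Gmnc had 7.07 in KO and 29.7 in OE, against 3.78 in WT. Rfx2 and Rfx3, the X-box factors most tied to cilia, were within 2-fold of WT, at 4099 and 346 in KO and 1870 and 617 in OE, against 3226 and 560 in WT.

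Markers of cell types that carry motile cilia or flagella had mixed levels, from no reads to high. Of 17 markers of multiciliated cells, 10 reached a mean of 10, Foxj1 was the only one called in either line, and Sntn and Tmem212 had no reads in any library. Their summed level was 1173 normalised counts in KO and 1495 in OE, against 1494 in WT. Much of each sum was 1 gene, Mns1, with 605 in KO and 724 in OE, against 813 in WT. The median log2 ratio to WT of the 10 measured markers was -0.28 for KO and -0.06 for OE. Of 16 markers of sperm and late germ cells, 3 were measured and 9 had no reads in any library, among them Prm1, Prm2 and Tnp1. The 2 called, both lower in OE, were Atp1a4, a sodium pump gene of sperm, with 221 in KO and 29.7 in OE, against 248 in WT, and Ldhc, a lactate dehydrogenase gene of testis, with 68.7 in KO and 2.201 in OE, against 34.0 in WT. The other measured sperm marker, Odf2, was abundant and not called, with 15238 in KO and 11405 in OE, against 15386 in WT. Of 8 node markers, 4 were measured and none was called in either line.

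Of the 10 ESC markers, Dppa3, a gene of naive ESCs and early germ cells, was the only one called, with 2370 normalised counts in KO and 152 in OE, against 805 in WT. It had the same order across the libraries as Hydin and Dnah12, and the part of a shift in cell state in their levels was not tested.

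**Figure D5:**
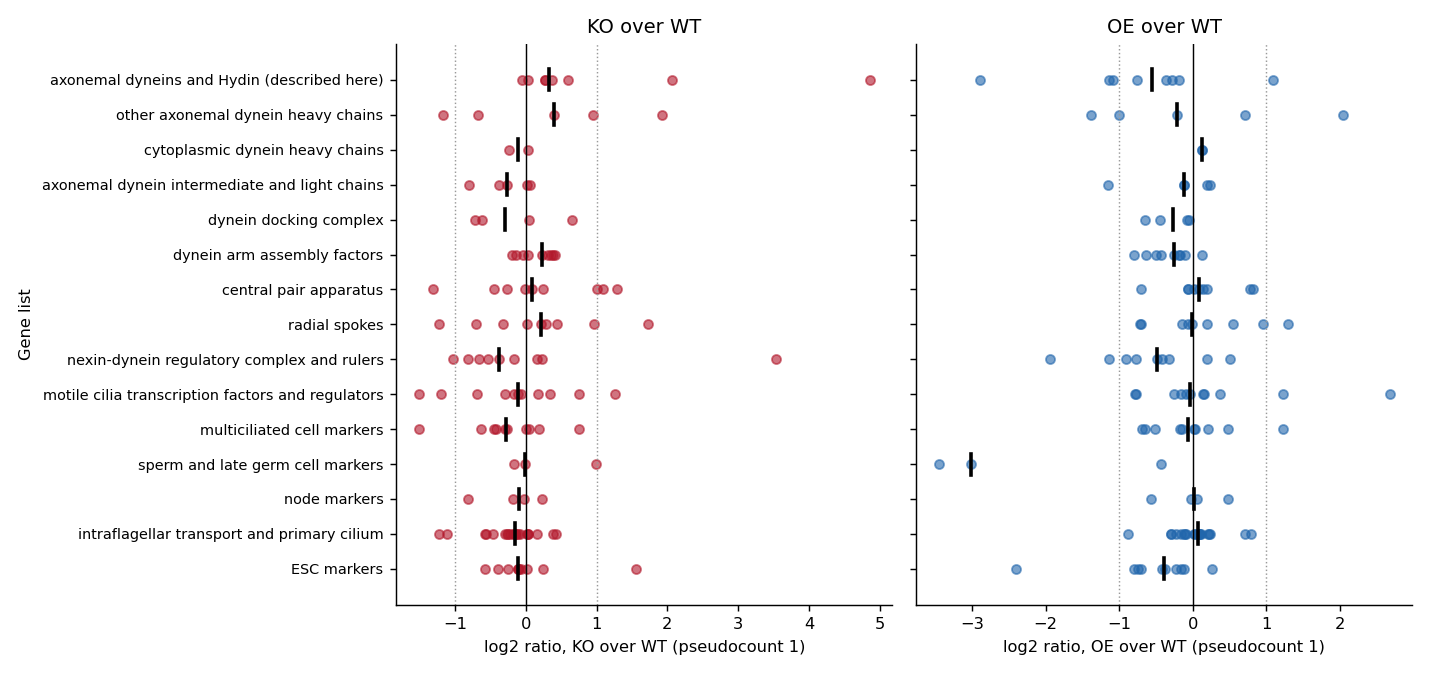
log2 ratio (pseudocount 1) of every gene in each list that reached a mean of 10 normalised counts, KO over WT on the left and OE over WT on the right; a point is a gene, a bar the list's median and the dotted lines mark 2-fold. The medians of the top list, the genes described here, were 0.32 in KO and -0.56 in OE, set by points that spread from below 0 to beyond 2-fold.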

How the data were processed

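Total RNA of 3 libraries (KO, OE and WT, 1 each) was used. According to the study's methods and processing notes, the authors trimmed adaptors with TrimGalore, aligned reads to GRCm38/mm10 with TopHat2, obtained strand-specific counts per gene with featureCounts and normalised them with DESeq2. The annotation release was not given in the sources used here. As deposited, each signal value is a count per gene over a DESeq2 size factor (0.990, 0.909 and 1.06 for KO, OE and WT). The methods describe a division by transcript length that the values do not carry, since 100% of them, multiplied by the size factor, came out as whole reads (tolerance 1e-06). A sheet of plotted genes was not used: it holds 4 level columns, whose KO and WT headings are exchanged relative to the gene table, and the authors' own ratios, and none of the members. Levels of repeat families were not used either.

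Genes were placed by their GENCODE M21 coordinates (96.2% of 39179 genes). Levels per kilobase used merged exon lengths. Ratios were taken without a pseudocount and calls with a pseudocount of 1, a minimum mean of 10 normalised counts and a fold of 2. The floor of 3 reads is 3.03, 3.30 and 2.83 normalised counts in KO, OE and WT. No count model was fitted, because 1 library per condition leaves no residual degrees of freedom. Members and lists were chosen with earlier results of these data known, and promoter motifs after the sequences had been seen. Named genes were all 10 members, every other axonemal heavy chain, up to 2 genes per list and comparison at least 2-fold apart and at 50 normalised counts or more where higher, the 3 genes most like Dnah12 and Hydin by Euclidean distance, and their flanking genes. Where 5 or fewer genes of a list or region were called they are named too. Rfx2, Rfx3, Trp73, Myb, Ttc25, Ccdc151, Asb14 and ESC, sperm and ciliated cell markers were named after their values were seen. Promoters came from RefSeq (GRCm38.p6) and matched 9 of 10 members by symbol. Alternatives were other scalings (gene totals, 12 housekeeping genes, TMM), pseudocounts, minimum means and folds. The scripts were tested on simulated data. Python 3.11.15, numpy 2.4.6, pandas 2.3.3, scipy 1.17.1, matplotlib 3.10.9, R 4.3.3 and edgeR 4.0.16 (for TMM factors only) were used.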

Additional observations from a re-analysis of the deposited data

How the results depend on the processing

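Under the other scalings and pseudocounts, the 100 recomputed ratios of single members to WT stayed within counting error of those reported, and no direction of a called value reversed. Over these settings the ratio of KO over WT was 26.2 to 30.2 for Dnah12 and 4.01 to 4.26 for Hydin, and that of OE over WT was 0.125 to 0.153 for Hydin, 0.422 to 0.511 for Dnah12, 0.446 to 0.488 for Dnah6 and 2.05 to 2.204 for Dnah8. The members' calls changed with the fold, the minimum or a pseudocount of 5, and not with the scaling. At a fold of 3, 0 members were higher in OE and 1, Hydin, was lower, and with no minimum mean 2 members were higher in OE, Dnah3 being added on 3 reads. At a fold of 1.5, Dnah5 was added to those higher in KO and Dnah2 to those lower in OE, and with a pseudocount of 5 Dnah12 was no longer called lower in OE. Some list calls also changed with scaling or pseudocount. Of the other heavy chains, 1 was lower in OE with gene totals or a pseudocount of 5, Dnah7a being lost with gene totals, and 0 were lower in KO with a pseudocount of 5. With gene totals 2 radial spoke genes were higher in OE. With TMM or a pseudocount of 0.5, 1 sperm marker was higher in KO. With a pseudocount of 5, 0 radial spoke and 0 nexin-dynein genes were lower in KO, and 1 nexin-dynein gene and 0 intermediate or light chains were lower in OE. Over all genes, 749 were higher and 642 lower in KO, and 1876 were higher and 687 lower in OE. With a minimum mean of 50 these counts were 314 and 399 in KO and 403 lower in OE. With no minimum they were 3005 and 1346 in KO and 4082 and 1530 in OE. At a fold of 1.5 they were 1416 and 1653 in KO and 2971 and 1616 in OE, and at a fold of 3, 358 and 191 in KO and 1080 and 226 in OE. No scaling moved the median of all genes by more than 0.1 on the log2 scale. With 1 library per condition, the spread between cultures or clones is unknown, and differences in Dnah3 and Dnah9 were not detectable at this depth. No paired analysis was possible because each condition has 1 library.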
